A study of Mus musculus with 12 samples.

Results

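Fc receptors bind the constant part of antibodies and pass the signal into the cell that carries them. The genes described here are the common gamma chain Fcer1g and the mouse IgG receptor chains Fcgr1, Fcgr2b, Fcgr3 and Fcgr4, taken as a gene family by name, 5 of the 20696 genes with at least 1 read. They were measured by polyA RNA-seq in Flk2- Lin-Sca-1+Kit+ cells, the stem and progenitor gate of mouse bone marrow, with 3 libraries from each of 4 genotypes. Mdmx-Tg/Pu.1-URE-/- mice carried a transgene for MDMX (gene Mdm4), an inhibitor of p53, and lacked both copies of the upstream regulatory element (URE) of Spi1, which encodes the myeloid transcription factor PU.1. Pu.1-URE-/- mice lacked the element alone, Mdmx-Tg mice carried the transgene alone, and Wild-type mice had neither change. The labels gave each library a mouse number of its own, and they did not give ages, the promoter of the transgene or the strain. Libraries held between 47231506 and 55030235 reads assigned to genes.

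The gamma chain carries an activating (ITAM) motif, and in mice Fcgr1, Fcgr3 and Fcgr4 need it to reach the surface and to signal through the kinase Syk. Fcgr2b needs no gamma chain: it is the inhibitory IgG receptor, whose ITIM motif recruits the phosphatase SHIP-1 (Inpp5d). Neutrophils, monocytes and mast cells are known for the activating chains, and B cells for Fcgr2b. Of the 5 genes, 4 lie within one stretch of chromosome 1 in GRCm38: Fcgr2b at chr1:170958617-170976547 on the minus strand, Fcgr4 at chr1:171018920-171029761 on the plus strand, Fcgr3 at chr1:171051174-171064935 on the minus strand and Fcer1g at chr1:171229572-171234365 on the minus strand. Fcgr1 lies at chr3:96282909-96293969 on the minus strand.

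PU.1 is an ETS factor, and ETS factors bind sites with the core GGAA. The sequences just upstream of the RefSeq starts (GRCm38.p6, all 5 genes matched, bases outside annotated exons, 5′ to 3′ on the gene's strand) are shown because 3 of the genes were called higher together in Pu.1-URE-/- against Wild-type, with GGAA on either strand in capitals:

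Fcer1g: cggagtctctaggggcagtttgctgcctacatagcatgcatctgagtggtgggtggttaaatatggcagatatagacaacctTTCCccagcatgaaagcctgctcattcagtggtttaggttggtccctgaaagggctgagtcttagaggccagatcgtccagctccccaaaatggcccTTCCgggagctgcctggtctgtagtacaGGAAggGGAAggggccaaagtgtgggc

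Fcgr3: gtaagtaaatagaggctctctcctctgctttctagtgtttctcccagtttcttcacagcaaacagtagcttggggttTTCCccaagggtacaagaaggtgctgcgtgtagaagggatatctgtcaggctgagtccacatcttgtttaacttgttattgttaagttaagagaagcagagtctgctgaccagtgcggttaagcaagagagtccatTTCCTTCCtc

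Fcgr4: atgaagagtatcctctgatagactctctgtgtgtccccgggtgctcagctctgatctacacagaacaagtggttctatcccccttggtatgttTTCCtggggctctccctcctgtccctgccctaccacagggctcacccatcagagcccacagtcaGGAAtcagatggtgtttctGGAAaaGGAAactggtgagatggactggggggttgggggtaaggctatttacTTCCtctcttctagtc

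Fcgr1: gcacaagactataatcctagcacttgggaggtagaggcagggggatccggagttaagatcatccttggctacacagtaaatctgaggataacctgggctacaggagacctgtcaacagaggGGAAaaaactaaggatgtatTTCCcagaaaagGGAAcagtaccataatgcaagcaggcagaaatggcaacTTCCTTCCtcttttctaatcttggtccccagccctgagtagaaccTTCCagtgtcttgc

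Fcgr2b: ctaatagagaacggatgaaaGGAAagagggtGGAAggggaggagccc

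They span chr1:171234366-171234599 for Fcer1g, chr1:171059404-171059626 for Fcgr3, chr1:171018676-171018919 for Fcgr4, chr3:96293970-96294219 for Fcgr1 and chr1:170976128-170976174 for Fcgr2b, where exons left only 47 bases. The core occurred 4 times for Fcer1g, 3 times for Fcgr3, 5 times for Fcgr4, 6 times for Fcgr1 and 2 times for Fcgr2b. It is common, as 92.2% of 32851 promoters held it at the positions searched for Fcer1g and 39.9% at those searched for Fcgr2b. The longer GAGGAA, which contains the core, occurred once each for Fcgr3, Fcgr4 and Fcgr1, each time on the opposite strand (read as TTCCTC) and at 6, 22 and 55 bases from the start, and it did not occur for Fcer1g or Fcgr2b. Between 21% and 23.3% of promoters held GAGGAA in windows of those positions, and 4.27% in the short window of Fcgr2b. The composite motif of PU.1 and IRF factors (GGAA and GAAA with 2 bases of any kind between) occurred in none of the 5, and the C/EBP-like TTGCNNAA occurred once, for Fcgr3, 28 bases from the start, against 8.43% of promoters. These are matches of letters on both strands, not binding sites.

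The label genes were read first. Mdm4 had 353, 163 and 209.8 reads per 1000000 assigned reads (CPM, TMM-scaled) in Mdmx-Tg/Pu.1-URE-/- libraries, 93.9, 56.2 and 90.3 CPM in Pu.1-URE-/- libraries, 535, 414 and 163 CPM in Mdmx-Tg libraries and 77.9, 70.9 and 35.8 CPM in Wild-type libraries. Every transgenic library was above every library without the transgene. Spi1 had 3.48, 1.84 and 0.0198 CPM in Mdmx-Tg/Pu.1-URE-/- libraries, 8.73, 8.73 and 23.9 CPM in Pu.1-URE-/- libraries, 21.6, 13.5 and 3.69 CPM in Mdmx-Tg libraries and 38.0, 5.34 and 8.08 CPM in Wild-type libraries. Spi1 in Pu.1-URE-/- libraries thus overlapped Wild-type, while Mdmx-Tg/Pu.1-URE-/- libraries lay below all Mdmx-Tg libraries. Of the gate's genes, Kit was present in every library, at 165 to 261, 171 to 228, 270.2 to 325 and 274 to 328 CPM in Mdmx-Tg/Pu.1-URE-/-, Pu.1-URE-/-, Mdmx-Tg and Wild-type libraries. Flt3, which encodes Flk2, the marker the sort left out, was read in every library too, at 35.6 to 53.7, 10.8 to 51.9, 5.82 to 22.2 and 7.06 to 13.6 CPM in that order. Its Mdmx-Tg/Pu.1-URE-/- libraries were above all libraries with the element, and its part in the Fc receptor differences was not tested.

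With loss of the element, the gamma chain and the IgG receptor chains Fcgr3 and Fcgr2b were higher in cells without the transgene, by 11.4-fold, 7.99-fold and 4.98-fold against Wild-type. In cells with the transgene, Fcer1g was 3.97-fold and Fcgr3 5.76-fold higher against Mdmx-Tg, and Fcgr2b did not pass the test. Fcgr4 was almost unread in libraries with the element, and Fcgr1 was near the limit of detection everywhere. The calls are edgeR quasi-likelihood tests with Benjamini-Hochberg adjustment over 15012 genes at a threshold of 0.05. Of the 5 genes, 3 were called higher in Pu.1-URE-/- against Wild-type, where 3.84% of all genes were. In Mdmx-Tg/Pu.1-URE-/- against Mdmx-Tg 2 were called higher, where 1.67% of all genes were, and in Mdmx-Tg/Pu.1-URE-/- against Wild-type 1 was, where 2.47% were. None was called lower, where 0.866%, 0.646% and 0.873% of all genes were. All 5 passed the filter on low counts, Fcgr4 only through libraries without the element. With 3 libraries doubted from an earlier look at these data left out (Mdmx-Tg/Pu.1-URE-/- 3, Mdmx-Tg 2 and Wild-type 1), 1, 0 and 1 of the 5 were called in these comparisons. The samples are bulk RNA, in which more cells of a type and more RNA per cell cannot be told apart.

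**Figure D1:**
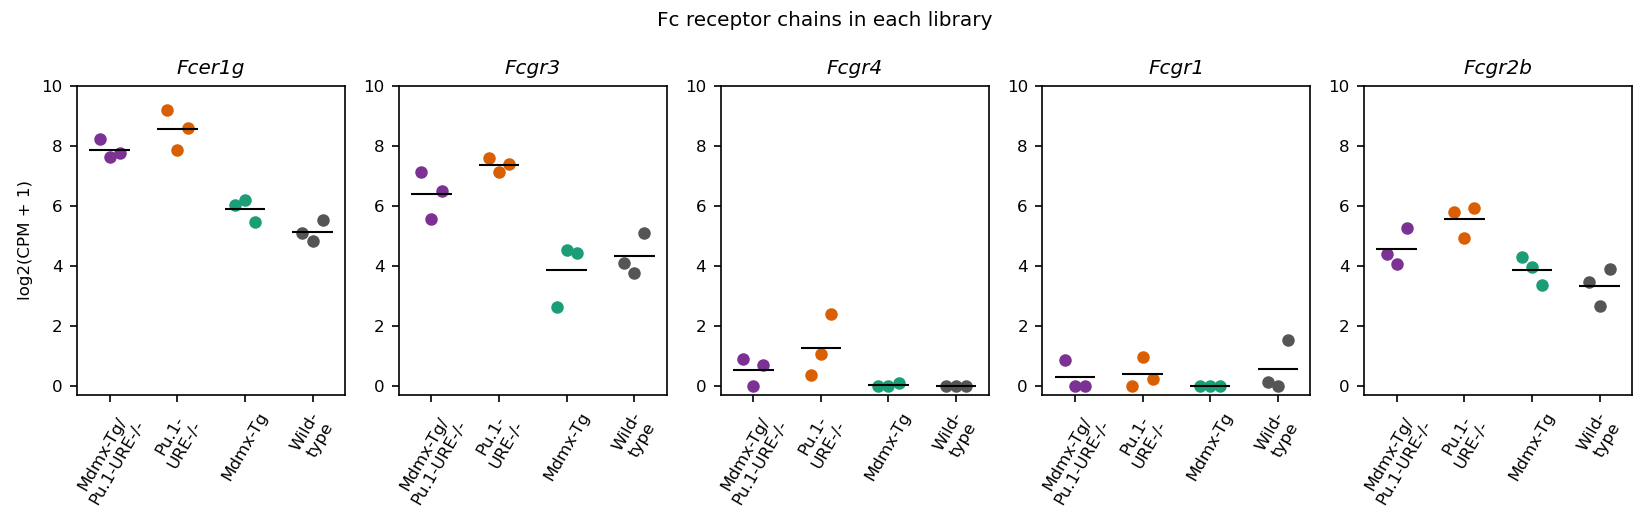
Level of each chain as log2(CPM + 1) in each of 12 libraries, with points for libraries and bars for the mean of 3. Every library without the element is above every library with it for Fcer1g and Fcgr3, while Fcgr2b, Fcgr4 and Fcgr1 overlap. The share of all genes separated in this way is not given.

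Fcer1g, the common gamma chain, was the most abundant of the 5 in TPM, a level per length. Its TPM was 408 to 761 in Mdmx-Tg/Pu.1-URE-/-, 569.9 to 1223 in Pu.1-URE-/-, 85.0 to 156 in Mdmx-Tg and 38.0 to 124 in Wild-type libraries, where Fcgr3 had 39.4 to 141, 135 to 161, 5.05 to 17.2 and 7.25 to 37.4 TPM. Fcer1g had 300.4, 196 and 216 CPM in Mdmx-Tg/Pu.1-URE-/- libraries and 580.5, 234 and 386 CPM in Pu.1-URE-/- libraries, against 63.8, 72.4 and 43.2 CPM in Mdmx-Tg libraries and 33.2, 27.1 and 44.7 CPM in Wild-type libraries. The lowest library without the element, at 196 CPM, was well above the highest with it, at 72.4 CPM, so these sets did not overlap. Such separation is common at 3 libraries against 3. Of all genes, 15.9% were higher without overlap in Pu.1-URE-/- against Wild-type and 11.9% in Mdmx-Tg/Pu.1-URE-/- against Mdmx-Tg. In Pu.1-URE-/- against Wild-type the log2 change of Fcer1g was 3.52 (SE 0.37, edgeR adjusted p = 0.000581). Against Mdmx-Tg, Mdmx-Tg/Pu.1-URE-/- showed 1.99 (SE 0.35, edgeR adjusted p = 0.0144), and against Wild-type 2.76 (SE 0.36, edgeR adjusted p = 0.00273). The first and the last call held without each library in turn. The call against Mdmx-Tg was lost without Mdmx-Tg 1 (adjusted p = 0.0612) and without Mdmx-Tg/Pu.1-URE-/- 1 (adjusted p = 0.0687), and with a term for Y-linked expression (adjusted p = 0.0816), at log2 changes of 1.96, 1.72 and 2.11.

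Fcgr3, a low-affinity activating IgG receptor, also separated the libraries by the element. It had 139, 46.7 and 88.9 CPM in Mdmx-Tg/Pu.1-URE-/- libraries and 191, 138 and 166 CPM in Pu.1-URE-/- libraries, against 5.12, 22.1 and 20.5 CPM in Mdmx-Tg libraries and 16, 12.6 and 33.3 CPM in Wild-type libraries. The 6 libraries without the element were again all above the 6 with it. For neither Fcer1g nor Fcgr3 is the share of all genes separated 6 against 6 given here. The log2 change was 3.00 (SE 0.59, edgeR adjusted p = 0.0148) in Pu.1-URE-/- against Wild-type and 2.52 (SE 0.58, edgeR adjusted p = 0.0487) in Mdmx-Tg/Pu.1-URE-/- against Mdmx-Tg. For Mdmx-Tg/Pu.1-URE-/- against Wild-type it was 2.15 (SE 0.57, edgeR adjusted p = 0.0708), not past the threshold. Without Wild-type 1, Wild-type 2 or Pu.1-URE-/- 1 the first call was lost, with adjusted p = 0.0586, 0.0786 and 0.0547. The call against Mdmx-Tg was lost without each of Mdmx-Tg 1, Mdmx-Tg 2 and Mdmx-Tg 3 (adjusted p = 0.0998, 0.0881 and 0.0839), without Mdmx-Tg/Pu.1-URE-/- 1 (0.176) or without Mdmx-Tg/Pu.1-URE-/- 3 (0.108), and with the replicate number as a block (0.0914). This call was also lost with the Y-linked term (edgeR adjusted p = 0.269). Without Mdmx-Tg/Pu.1-URE-/- 2 the change against Wild-type passed (adjusted p = 0.0485).

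Fcgr4, an activating receptor for mouse IgG of intermediate affinity, was at the edge of detection. It had 42, 0 and 30 reads in Mdmx-Tg/Pu.1-URE-/- libraries and 13, 62 and 217 reads in Pu.1-URE-/- libraries, against 0, 0 and 4 reads in Mdmx-Tg libraries and 0 reads in each Wild-type library. Every Pu.1-URE-/- library was above every Wild-type library, and pooled CPM was at least 103-fold higher, taking 3 reads over the group as the floor. The edgeR test did not call it (adjusted p = 0.0946), while DESeq2 (adjusted p = 0.0115) and edgeR with the Y-linked term (0.0357) did, and over the alternatives its adjusted p ran to 0.243. Fcgr4 passed the filter on low counts only through libraries without the element. Its lack of overlap, bounds and p-values therefore describe the values that let it pass, and are not separate support. Pu.1-URE-/- 3 held 217 of the 292 reads of its group, and without it the bound was 39.0-fold. In Mdmx-Tg/Pu.1-URE-/- against Wild-type pooled CPM was at least 25.7-fold higher (edgeR adjusted p = 0.164). That bound was 15.8-fold without Mdmx-Tg/Pu.1-URE-/- 1 and 39.5-fold without Mdmx-Tg/Pu.1-URE-/- 2.

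Fcgr1, the high-affinity IgG receptor, had 41, 0 and 0 reads in Mdmx-Tg/Pu.1-URE-/- libraries, 0, 54 and 9 reads in Pu.1-URE-/- libraries, 0 reads in each Mdmx-Tg library and 4, 0 and 124 reads in Wild-type libraries. A single library in each of the groups that had reads held most of them, and the groups overlapped. The log2 change in Pu.1-URE-/- against Wild-type was -0.81 with a 95% interval of -6.60 to 4.97 (edgeR adjusted p = 0.918), so a change of either sign was not detectable at this depth. Of the 3 chains read in every library (Fcer1g, Fcgr3 and Fcgr2b), 3 were higher without overlap in Pu.1-URE-/- against Wild-type, where 15.9% of all genes were. The like count was 2 in Mdmx-Tg/Pu.1-URE-/- against Mdmx-Tg and 3 in Mdmx-Tg/Pu.1-URE-/- against Wild-type, where 11.9% and 15.2% of all genes were. Fcgr4 and Fcgr1, with libraries at 0 reads, are not in these counts.

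Fcgr2b, the inhibitory receptor, was called higher in 1 of the 3 comparisons with element loss. It had 20.0, 15.8 and 36.9 CPM in Mdmx-Tg/Pu.1-URE-/- libraries and 54.5, 29.7 and 60.2 CPM in Pu.1-URE-/- libraries, against 18.6, 14.4 and 9.24 CPM in Mdmx-Tg libraries and 9.96, 5.30 and 13.7 CPM in Wild-type libraries. Pu.1-URE-/- libraries did not overlap Wild-type, while Mdmx-Tg/Pu.1-URE-/- libraries overlapped Mdmx-Tg. The log2 change was 2.32 (SE 0.47, edgeR adjusted p = 0.0184) in Pu.1-URE-/- against Wild-type. In Mdmx-Tg/Pu.1-URE-/- against Mdmx-Tg it was 0.78 with a 95% interval of -0.22 to 1.78 (edgeR adjusted p = 0.424), and against Wild-type 1.33 (SE 0.46, edgeR adjusted p = 0.157). The Pu.1-URE-/- call was lost without Wild-type 1, Wild-type 2, Pu.1-URE-/- 1 or Pu.1-URE-/- 3, with adjusted p = 0.0593, 0.0784, 0.0713 and 0.0849, at log2 changes of 2.02 to 2.61 over the libraries left out.

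**Figure D2:**
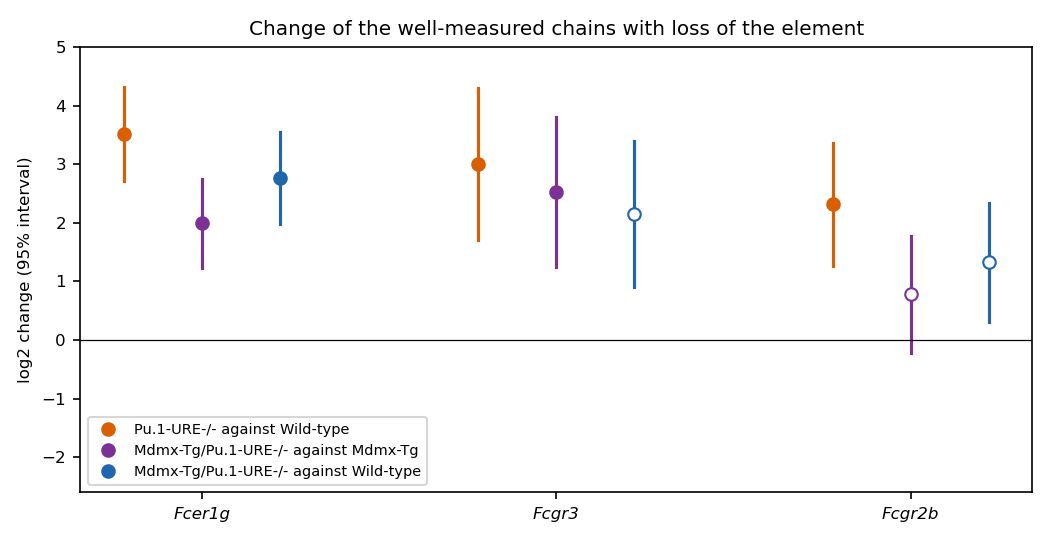
Log2 change of Fcer1g, Fcgr3 and Fcgr2b in 3 comparisons of genotypes without the element against genotypes with it, with 95% intervals over 3 libraries a group. Filled points passed an adjusted p of 0.05, and all but Fcgr2b against Mdmx-Tg (0.78, interval -0.22 to 1.78) have intervals above 0.

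The transgene was set against its absence in the other comparisons. Fcer1g differed by 0.77 in log2 change in Mdmx-Tg against Wild-type (edgeR adjusted p = 0.464) and by -0.75 in Mdmx-Tg/Pu.1-URE-/- against Pu.1-URE-/- (edgeR adjusted p = 0.462). Fcgr2b differed by 0.54 (edgeR adjusted p = 0.751) and -0.99 (edgeR adjusted p = 0.473), and Fcgr3 by -0.37 (edgeR adjusted p = 0.894) and -0.85 (edgeR adjusted p = 0.609). No gene of 15012 was called in either, by edgeR, while 1576 and 1601 had an unadjusted p under 0.05 and DESeq2 called 329 in each. Whether the change with element loss differed with and without the transgene was tested as an interaction: it was -1.53 for Fcer1g (interval -2.57 to -0.48, edgeR adjusted p = 0.826), -1.53 for Fcgr2b (interval -2.95 to -0.12, edgeR adjusted p = 0.843) and -0.47 for Fcgr3 (interval -2.18 to 1.23). The interaction called 0 genes by edgeR, 194 by DESeq2, and 871 had an unadjusted p under 0.05.

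The chains were then set against the gamma chain per length, in TPM, the authors' length-scaled abundance. Loss of the element went with less Fcgr2b per gamma chain, and with no detectable shift of Fcgr3 per gamma chain. Fcgr2b TPM was 2.34%, 2.65% and 4.81% of Fcer1g TPM in Mdmx-Tg/Pu.1-URE-/- libraries and 2.78%, 3.86% and 4.70% in Pu.1-URE-/- libraries, against 5.10%, 6.30% and 4.82% in Mdmx-Tg libraries and 8.79%, 6.02% and 10.7% in Wild-type libraries. The 6 libraries without the element were all below the 6 with it, with 4.81% the highest without it and 4.82% the lowest with it. The mean log2 ratio, with 0.1 TPM added to both, was -4.88 ± 0.45 without the element and -3.88 ± 0.45 with it (SD, n = 6 each), a difference of -1.0 with an interval of -1.48 to -0.46. An exact two-sided permutation test within each transgene state gave p = 0.005, the smallest that its 400 arrangements allow. Fcer1g was itself higher without the element, so a gene that rose less than Fcer1g has a lower ratio to it. The share of all genes with such a drop is not given here, so the drop is not shown to be particular to Fcgr2b.

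Fcgr3 TPM was 18.5%, 9.67% and 16.4% of Fcer1g TPM in Mdmx-Tg/Pu.1-URE-/- libraries and 13.1%, 23.7% and 17.0% in Pu.1-URE-/- libraries, against 3.23%, 12.4% and 19.1% in Mdmx-Tg libraries and 19.1%, 18.4% and 30.2% in Wild-type libraries. These sets overlapped, with a difference in mean log2 ratio of 0.15 and an interval of -0.74 to 1.15 (exact permutation p = 0.83). The ratio of Fcgr4 differed by -0.21 (exact permutation p = 0.78) and that of Fcgr1 by -2.72 (exact permutation p = 0.015), but both rest on libraries with 0 reads, where the added 0.1 TPM sets the ratio. Of 4 ratios compared, p-values are unadjusted. Fcgr3 TPM over Fcgr2b TPM was 7.94, 3.65 and 3.40 in Mdmx-Tg/Pu.1-URE-/- libraries, 4.73, 6.14 and 3.62 in Pu.1-URE-/- libraries, 0.633, 1.97 and 3.97 in Mdmx-Tg libraries and 2.17, 3.05 and 2.82 in Wild-type libraries.

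**Figure D3:**
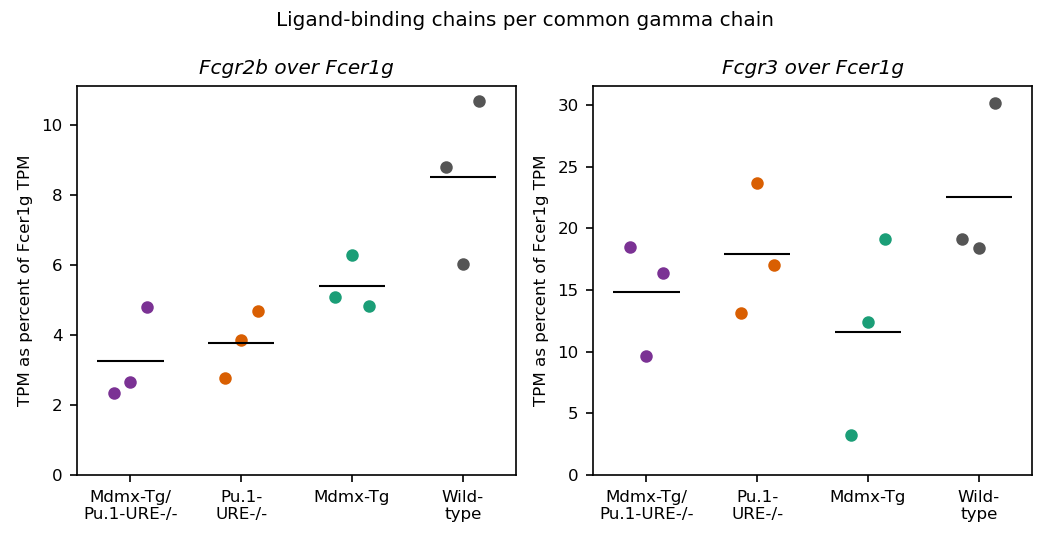
Fcgr2b and Fcgr3 TPM as a percent of Fcer1g TPM in each library, with bars for the mean of 3. Fcgr2b lies between 2.34% and 4.81% without the element and between 4.82% and 10.7% with it, while Fcgr3 overlaps.

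The split between Fcgr2b and Fcgr3 depends on the counting of similar sequence. Of the distinct 31-base windows of Fcgr3 transcripts 14.3% also occur in Fcgr2b, and 6.42% of those of Fcgr2b occur in Fcgr3, while Fcer1g shared none with any gene. At the read length of 100 bases 2.70% of Fcgr3 windows were shared. Summed, Fcgr2b and Fcgr3 were higher by 2.81 in log2 change in Pu.1-URE-/- against Wild-type (edgeR adjusted p = 0.00354), by 1.95 in Mdmx-Tg/Pu.1-URE-/- against Mdmx-Tg (0.0324) and by 1.93 against Wild-type (0.0273). Within genes, the leading coding transcript held 93.6% of Fcer1g reads without the element and 94.0% with it, and for Fcgr3 81.1% and 87.3%. Fcgr2b was spread over 4 coding transcripts, and its longest held 25.5% of reads without the element and 38.3% with it. The last share leans on Mdmx-Tg 1, where this transcript held 786 of 973 Fcgr2b reads. Other libraries with the element had 49.5 to 305 reads of it, so no shift between transcripts is read from these shares.

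Markers of mature and committed cells moved with the same comparison. Summed neutrophil markers (12 listed) were 24054 to 28590 CPM in Mdmx-Tg/Pu.1-URE-/- libraries and 25256 to 93524 CPM in Pu.1-URE-/- libraries, against 3.30 to 18.1 CPM in Mdmx-Tg libraries and 8.11 to 16.6 CPM in Wild-type libraries. The granule genes Camp and Ngp made up most of it, Ly6g had no read with the element, and Mmp8 and Mmp9 had none without it. Granulocyte-monocyte progenitor markers (8 listed) were 10348 to 29850, 28000 to 53769, 878 to 1659 and 1270 to 2563 CPM in Mdmx-Tg/Pu.1-URE-/-, Pu.1-URE-/-, Mdmx-Tg and Wild-type libraries. Monocyte and macrophage markers (12 listed) were 391 to 845, 642 to 765, 107 to 181 and 98.1 to 537 CPM in the same order, led by Ly6c2, while the defining macrophage gene Adgre1 had no read without the element. Their part in the Fc receptor differences was not tested.

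The B cell and plasma cell markers (8 listed) went the other way in part, at 731 to 18284, 2723 to 13559, 13641 to 43849 and 1729 to 146777 CPM in Mdmx-Tg/Pu.1-URE-/-, Pu.1-URE-/-, Mdmx-Tg and Wild-type libraries, mostly Ighm and Jchain, and Pax5 had no read in any library. Immunoglobulin genes held 33.2% of the reads of Wild-type 1. Mast cell and basophil markers (9 listed) summed to 473 to 841, 359 to 442, 206 to 304 and 202 to 327 CPM, but single markers differed in direction. Mcpt8 was 168 to 376, 229 to 321, 20.4 to 32.4 and 11.5 to 44.4 CPM, while Ms4a2 was 0 to 1.29, 0.266 to 1.53, 4.28 to 7.05 and 4.83 to 13.7 CPM and Gata2 14.0 to 25.7, 6.97 to 42.8, 51.5 to 77.4 and 36.6 to 67.9 CPM. Cpa3 was 279.7 to 416, 21.3 to 138, 88.8 to 140.1 and 93.7 to 172 CPM, so only its Mdmx-Tg/Pu.1-URE-/- libraries stood above the rest. T and NK cell markers (8 listed) were 1546 to 3371, 2535 to 3948, 197 to 313 and 96.9 to 257 CPM, nearly all Nkg7. Cd3e had at most 0.450 CPM without the element and no read with it, while Ncr1 had no read without the element, at most 0.460 CPM in Mdmx-Tg and 2.35 to 4.97 CPM in Wild-type libraries. Stem cell gate genes (8 listed) were 465 to 973, 365 to 567, 877 to 1342 and 723 to 886 CPM. Kit and Meis1 had the highest means of the list in each genotype, while Ly6a and Procr overlapped between all genotypes. The sum also holds Flt3, the marker the sort left out, which was highest in Mdmx-Tg/Pu.1-URE-/- libraries on average. Y-linked genes were high, at 200 to 222 CPM, in 2 Mdmx-Tg/Pu.1-URE-/- libraries and 1 Wild-type library and reached at most 5.7 CPM elsewhere, so sex was not balanced between genotypes. The part of these in the results was not tested beyond the Y-linked term above.

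Other genes of Fc receptor chains and Fc receptor-like proteins did not pass the test in any comparison with element loss (0 of 8 tested of 14 listed). Of all genes, 3.84% were called higher and 0.866% lower in Pu.1-URE-/- against Wild-type. In Mdmx-Tg/Pu.1-URE-/- against Mdmx-Tg these shares were 1.67% and 0.646%, and against Wild-type 2.47% and 0.873%. The alpha and beta chains of the mast cell IgE receptor, which share the gamma chain, had lower values: Fcer1a had 1.61, 2.94 and 9.87 CPM in Mdmx-Tg/Pu.1-URE-/- libraries and 1.27, 1.58 and 1.97 CPM in Pu.1-URE-/- libraries, against 22.3, 26.2 and 9.77 CPM in Mdmx-Tg libraries and 3.07, 21.7 and 13.3 CPM in Wild-type libraries. In Pu.1-URE-/- against Wild-type the log2 change was -2.98 for Fcer1a (edgeR adjusted p = 0.0724) and -3.30 for Ms4a2 (edgeR adjusted p = 0.321), neither past the threshold. Fcgrt, the neonatal receptor that recycles IgG, was at -1.59 (edgeR adjusted p = 0.0793).

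Of adaptors with ITAM or YxxM motifs and gamma-chain partners, 2 of 8 tested were called higher and 0 lower in Pu.1-URE-/- against Wild-type, the same in Mdmx-Tg/Pu.1-URE-/- against Mdmx-Tg, and 3 higher in Mdmx-Tg/Pu.1-URE-/- against Wild-type. Over all genes in these comparisons, 3.84%, 1.67% and 2.47% were called higher and 0.866%, 0.646% and 0.873% lower. Hcst (DAP10), an adaptor that signals through PI3-kinase, had 26.6, 24.8 and 31.5 CPM in Mdmx-Tg/Pu.1-URE-/- libraries and 62.0, 32.2 and 53.5 CPM in Pu.1-URE-/- libraries, against 6.34, 4.98 and 6.87 CPM in Mdmx-Tg libraries and 3.73, 2.65 and 7.22 CPM in Wild-type libraries. It was 10.9-fold higher in Pu.1-URE-/- against Wild-type (edgeR adjusted p = 0.00138) and 4.55-fold in Mdmx-Tg/Pu.1-URE-/- against Mdmx-Tg (edgeR adjusted p = 0.0179). Clec4e (Mincle), a lectin that signals through the gamma chain, had 415, 376 and 448 CPM in Mdmx-Tg/Pu.1-URE-/- libraries and 106, 226 and 150 CPM in Pu.1-URE-/- libraries, against 25.0, 52.6 and 12.2 CPM in Mdmx-Tg libraries and 8.11, 3.07 and 16.7 CPM in Wild-type libraries. It rose 17.3-fold (edgeR adjusted p = 0.00545) and 13.8-fold (edgeR adjusted p = 0.0138) in these comparisons. Clec4d, its relative, was 2.89-fold higher in Mdmx-Tg/Pu.1-URE-/- against Wild-type (edgeR adjusted p = 0.0145), a call lost in 4 of 6 cases with 1 library left out (adjusted p up to 0.0839) and with the Y-linked term (0.0584). Tyrobp (DAP12) averaged 6.75 ± 2.02, 16.4 ± 7.05, 12.5 ± 6.61 and 16.3 ± 13.8 CPM in Mdmx-Tg/Pu.1-URE-/-, Pu.1-URE-/-, Mdmx-Tg and Wild-type (SD, n = 3 each), with a log2 change of 0.01 in Pu.1-URE-/- against Wild-type (edgeR adjusted p = 0.997), and Cd247, the T cell receptor zeta chain, was at -0.10 (edgeR adjusted p = 0.978). The Hcst and Clec4e calls in Pu.1-URE-/- against Wild-type held without each library in turn, and in Mdmx-Tg/Pu.1-URE-/- against Mdmx-Tg they were lost without Mdmx-Tg 1 (adjusted p = 0.0695 and 0.0694), and Hcst also without 3 other libraries and with the Y-linked term (adjusted p = 0.0617). The Clec4e fold was 27.8 without Wild-type 3 in the first and 22.2 without Mdmx-Tg 2 in the second.

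Activating signalling genes were mixed, with 4 of 21 called higher and 1 lower in Pu.1-URE-/- against Wild-type, 2 higher and 1 lower in Mdmx-Tg/Pu.1-URE-/- against Mdmx-Tg, and 3 higher and 1 lower in Mdmx-Tg/Pu.1-URE-/- against Wild-type. The shares of all genes called higher were 3.84%, 1.67% and 2.47%, and lower 0.866%, 0.646% and 0.873%, in these comparisons. In the first, Rac2, a GTPase of phagocytes, rose 5.75-fold (edgeR adjusted p = 0.00235), Pik3ap1, a PI3-kinase adaptor, 4.82-fold (0.0141), Vav1, an exchange factor, 2.60-fold (0.0148) and Plcg2, a phospholipase, 2.41-fold (0.0436). Btk, a kinase downstream of Syk, had 5.63, 2.31 and 6.30 CPM in Mdmx-Tg/Pu.1-URE-/- libraries and 10.6, 1.97 and 1.93 CPM in Pu.1-URE-/- libraries, against 46.7, 30.8 and 45.5 CPM in Mdmx-Tg libraries and 57.5, 48.1 and 77.0 CPM in Wild-type libraries. It was 12.6-fold lower in Pu.1-URE-/- against Wild-type (edgeR adjusted p = 0.0115), 8.64-fold lower in Mdmx-Tg/Pu.1-URE-/- against Mdmx-Tg (0.0373) and 12.8-fold lower in Mdmx-Tg/Pu.1-URE-/- against Wild-type (0.0165). Rac2 and Btk held their Pu.1-URE-/- calls without each library in turn, though Btk was 31.1-fold lower without Pu.1-URE-/- 1, and Vav1, Pik3ap1 and Plcg2 each lost theirs without 4, 4 and 5 of 6 libraries, with adjusted p up to 0.0784, 0.0683 and 0.19. Lat2, an adaptor of mast and myeloid cells, was 4.57-fold higher in Mdmx-Tg/Pu.1-URE-/- against Mdmx-Tg (edgeR adjusted p = 0.0119) and 5.83-fold against Wild-type (0.00524). Card9, which links Syk to NF-kB, was at least 316-fold higher against Mdmx-Tg, where it had 0 reads (edgeR adjusted p = 0.0343, lost without each of the 6 libraries in turn). Its bound was 173-fold without Mdmx-Tg/Pu.1-URE-/- 1. Wild-type libraries did hold Card9 reads, at 0.0153 to 2.05 CPM, against 2.06 to 11.6 CPM in Mdmx-Tg/Pu.1-URE-/- libraries. Card9 was not called in either comparison against Wild-type, and it passed the filter on low counts only through libraries without the element. Lat was 3.10-fold (0.0241) and Rac2 2.74-fold (0.0413) higher in Mdmx-Tg/Pu.1-URE-/- against Wild-type. Leaving out 1 library ended the Mdmx-Tg/Pu.1-URE-/- calls of Btk in 6 of 6 cases against Mdmx-Tg (adjusted p up to 0.122) and 3 of 6 against Wild-type (up to 0.0662), and those of Lat2 in 3 of 6 (up to 0.0572) and 0 of 6. It ended those of Lat and Rac2 against Wild-type in 5 of 6 cases each, with adjusted p up to 0.114 and 0.185. The Y-linked term ended the calls of Plcg2 in Pu.1-URE-/- against Wild-type (adjusted p = 0.0648), of Lat2, Btk and Card9 in Mdmx-Tg/Pu.1-URE-/- against Mdmx-Tg (0.0964, 0.214 and 0.0834) and of Lat, Btk and Rac2 in Mdmx-Tg/Pu.1-URE-/- against Wild-type (0.0858, 0.0627 and 0.118). Syk, which binds the ITAM, was at 1.05 in log2 change (edgeR adjusted p = 0.103) in Pu.1-URE-/- against Wild-type.

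Inhibitory signalling genes were called in both directions, 3 higher and 1 lower of 14 in Pu.1-URE-/- against Wild-type, 0 higher and 1 lower in Mdmx-Tg/Pu.1-URE-/- against Mdmx-Tg, and 1 higher and 1 lower in Mdmx-Tg/Pu.1-URE-/- against Wild-type. Among all genes 3.84%, 1.67% and 2.47% were called higher and 0.866%, 0.646% and 0.873% lower, in the same order. Dok2 and Dok3, adaptors that damp kinase signalling, rose 4.28-fold (edgeR adjusted p = 0.0241) and 7.52-fold (0.0421). Lilrb4a, an inhibitory receptor of myeloid cells, had 137, 78.2 and 51.6 CPM in Mdmx-Tg/Pu.1-URE-/- libraries and 240, 48.1 and 229.7 CPM in Pu.1-URE-/- libraries, against 1.92, 0 and 0.0179 CPM in Mdmx-Tg libraries and 0.452, 0.853 and 0 CPM in Wild-type libraries. It was called in Pu.1-URE-/- against Wild-type (edgeR adjusted p = 0.0223) and in Mdmx-Tg/Pu.1-URE-/- against Wild-type (0.0413). Cd300a, an ITIM receptor, had 0.221, 1.53 and 0.575 CPM in Mdmx-Tg/Pu.1-URE-/- libraries and 0.204, 1.88 and 0.158 CPM in Pu.1-URE-/- libraries, against 48.3, 67.4 and 11.1 CPM in Mdmx-Tg libraries and 35.6, 24.4 and 24.6 CPM in Wild-type libraries. It was 37.3-fold lower in Pu.1-URE-/- against Wild-type (edgeR adjusted p = 0.0228), 54.4-fold lower in Mdmx-Tg/Pu.1-URE-/- against Mdmx-Tg (0.0271) and 36.2-fold lower in Mdmx-Tg/Pu.1-URE-/- against Wild-type (0.0313). Inpp5d, the phosphatase recruited by Fcgr2b, was at 0.60 (edgeR adjusted p = 0.346) and Ptpn6, which ITIM receptors also recruit, at -0.18 (0.794). The Dok2, Dok3, Lilrb4a and Cd300a calls in Pu.1-URE-/- against Wild-type were each lost without 4, 4, 5 and 5 of 6 libraries, with adjusted p up to 0.108, 0.167, 0.0791 and 0.0979. The Mdmx-Tg/Pu.1-URE-/- calls of Cd300a were lost in 4 of 6 cases against Mdmx-Tg (up to 0.11) and 5 of 6 against Wild-type (up to 0.127), and that of Lilrb4a in 6 of 6 (up to 0.134). The Cd300a fold was 157 without Pu.1-URE-/- 2, and without Mdmx-Tg/Pu.1-URE-/- 2 it was 105 against Mdmx-Tg and 70.3 against Wild-type. The Dok3 fold was 16.8 without Wild-type 1. With the Y-linked term the calls of Dok3 in Pu.1-URE-/- against Wild-type (adjusted p = 0.0699), of Cd300a in both Mdmx-Tg/Pu.1-URE-/- comparisons (0.118 against Mdmx-Tg, 0.0672 against Wild-type) and of Lilrb4a in Mdmx-Tg/Pu.1-URE-/- against Wild-type (0.0889) were lost.

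**Figure D4:**
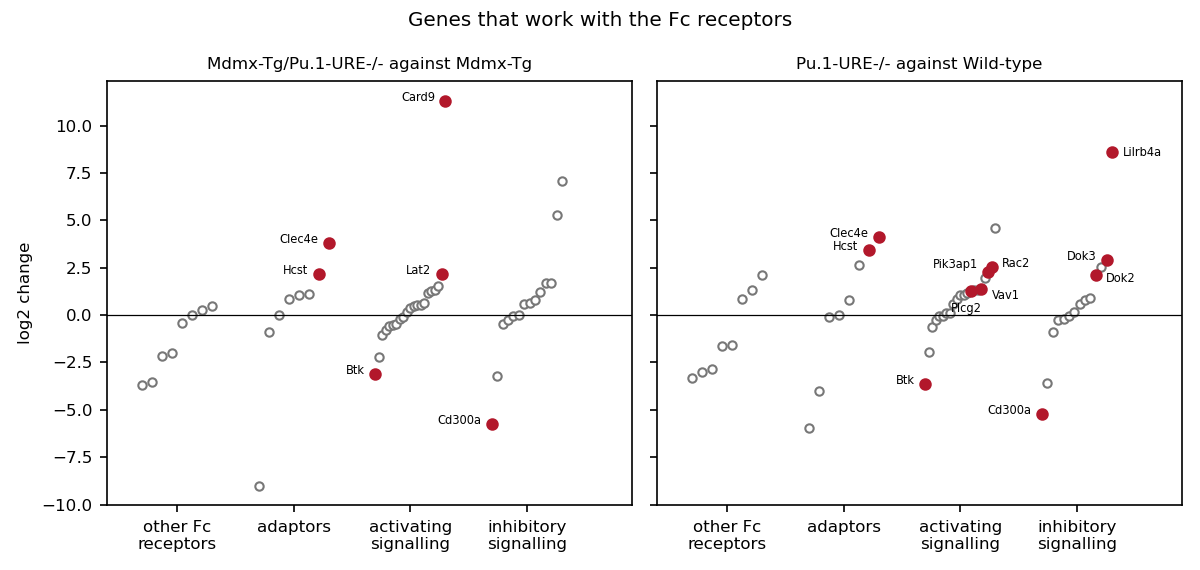
Log2 change of each tested gene in 4 lists of Fc receptor related genes, ordered by value, in Mdmx-Tg/Pu.1-URE-/- against Mdmx-Tg (left) and Pu.1-URE-/- against Wild-type (right). Red points passed an adjusted p of 0.05; Clec4e, Hcst, Btk and Cd300a did so in both panels, and for Card9 at left the height follows from 0 reads in Mdmx-Tg.

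Over the 12 libraries, in log2 CPM, the genes most like Fcer1g were Tmsb4x, Sh3bgrl3 and Arhgdib (Pearson r = 0.995 each), and those most like Fcgr3 were Apmap (0.976), Gpsm3 (0.969) and Sgms2 (0.968). For Fcgr2b they were Ikbke (0.950), Yaf2 (0.939) and Hist1h4h (0.938), and for Fcgr4 Sdk1 (0.948), Plin5 (0.938) and Tcp11x2 (0.937). For Fcgr1 they were Tdo2 (0.898), Smarcd1 (0.868) and Insrr (0.859). Fcer1g itself correlated with Fcgr2b at 0.90, with Fcgr3 at 0.88, with Fcgr4 at 0.77 and with Fcgr1 at 0.12. These are descriptions over libraries that share the genotype split. Fcgr4 and Fcgr1 had several libraries with 0 reads, all at the same lowest log2 CPM. Their correlations therefore rest largely on which libraries held any read.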

How the data were processed

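Stem and progenitor cells sorted from mouse marrow gave polyA RNA that was sequenced as paired reads of 100 bases on the BGISEQ-500, per the labels' protocols. FastQC, Salmon and DESeq2 are named in the submitters' processing notes with the builds mm10 and GRCm38, without versions or settings. The deposited expected counts (estimated reads of each transcript, raw, 35.3% not whole) and TPM are the authors' Salmon values, per the file headers. Of 116248 transcripts 115995 matched GENCODE M21, and the 253 others held 0.0379% to 0.0841% of reads. They were added up over each gene's transcripts and rounded. Tests used edgeR 4.0.16 (filterByExpr with minimum count 10 and total 15, TMM, quasi-likelihood, all 12 libraries, 1 mean per genotype) in R 4.3.3, with Benjamini-Hochberg adjustment over 15012 genes. Ratios used TPM plus 0.1 and an exact permutation test over 400 arrangements, with 95% intervals from the shifts that this test did not reject. The floor of 3 reads over a group allows for counting error only, while the intervals include the spread between libraries. Alternatives were DESeq2 1.42.0, limma-voom (limma 3.58.1) and others described after the report. The members and lists were chosen with earlier results of these data known. The edgeR step was tested on simulated data. Named genes were the 5 members, called genes of 4 related lists (59 genes), a few others named whatever their values, Mdm4, Spi1 and the 3 genes most like each member. Nothing says that the labelled mice were independent beyond their numbers, so p-values measure the spread between these samples.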

Additional observations from a re-analysis of the deposited data

How the results depend on the processing

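The count of Fc receptor genes called in Pu.1-URE-/- against Wild-type was 3, and ranged from 1 to 3 with a library left out; it was 4, with Fcgr4 added, by DESeq2 and with the Y-linked covariate, 2 with Fcgr2b and Fcgr3 summed, and 1 with 3 libraries left out together (Mdmx-Tg/Pu.1-URE-/- 3, Mdmx-Tg 2, Wild-type 1), an alternative chosen after seeing the data. In Mdmx-Tg/Pu.1-URE-/- against Mdmx-Tg the count was 2: it was 1 with relative log expression factors, limma-voom, a length offset, only the groups compared or the replicate block, 0 with a Y-linked covariate and 0 with those 3 libraries left out, and 0 to 2 with a library left out. In Mdmx-Tg/Pu.1-URE-/- against Wild-type it was 1, became 2 with DESeq2 and with Fcgr2b and Fcgr3 summed, and was 1 to 2 with a library left out. The log2 ratio of Fcgr1 to Fcer1g was -2.08 with 0.01 TPM added (exact permutation p = 0.275), -2.25 in CPM (p = 0.055) and -2.81 with the 3 libraries left out (p = 0.0667), and that of Fcgr4 was -2.02 with 1 TPM added (p = 0.005); both ratios rest on libraries with 0 reads. The Fcgr2b ratio stayed between -1.18 and -0.86 in 17 alternatives, with permutation p from 0.00216 to 0.0333. Over all genes, calls by DESeq2 were 1881, 1289 and 1547 in the 3 comparisons with element loss, against 707, 348 and 502 by edgeR. With the Y-linked covariate they were 92 in Mdmx-Tg/Pu.1-URE-/- against Mdmx-Tg and 178 against Wild-type, and with the 3 libraries left out 111 and 147, where the cause was not tested. Leaving out a library gave 299 to 785, 136 to 347 and 162 to 565 calls. With the replicate block the 3 counts of all genes were 690, 268 and 387. Over all tested genes, same-numbered libraries deviated together by r of -0.15 to 0.09 and others by -0.09 to 0.14. These values show no pairing by number over all genes, and they cannot exclude one that touches fewer genes. Low counts limit Fcgr1 and Fcgr4, and Fcgr4 passed the filter on low counts only through libraries without the element.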
